A study of Mus musculus with 20 samples.

Results

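The striatal transcriptome was compared between mice of an overactive line given d-amphetamine and mice of the same line given saline. The comparison uses 10 of the 20 libraries of the study, namely every library labelled overactive, with 5 saline and 5 amphetamine libraries, and every locus of the deposited count table that carries a gene symbol. All mice were male Collaborative Cross mice of about 6 months, a population derived by crossing several inbred founder strains. The overactive mice belong to a line bred by selection for cage overactivity. d-Amphetamine was given at 25 mg/kg, and the whole striatum was dissected 2 hours after the injection of drug or saline. The other 10 libraries are from a control line given the same injections and are used here for the estimate of spread between mice and for values set beside those of the overactive line. Each library is taken as 1 mouse. The labels give no identifiers of individual animals, so the p-values measure the spread between these samples.

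Amphetamine enters dopamine terminals through the dopamine transporter and acts on the vesicular monoamine transporter, so that dopamine leaves its vesicles and flows out of the terminal. The released dopamine reaches the GABAergic projection neurons that make up most striatal cells, which carry D1 or D2 receptors. In D1 cells it raises cyclic AMP and drives immediate early genes such as Fos, Arc and Egr1, whose transcripts appear within minutes and decay within hours, followed by slower genes such as those of the opioid peptides. Cortical and thalamic axons supply the glutamate input of these neurons, while the cell bodies of those inputs, and of the dopamine neurons, lie outside the striatum.

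No gene passed in the overactive line: edgeR's quasi-likelihood test called 0 of 17206 genes (0.0%) at a Benjamini-Hochberg adjusted p under 0.05, and the smallest adjusted p was 0.357. At an unadjusted p under 0.05 there were 1382 genes (8.03% of those tested, against 860 that would fall there by the threshold alone), of which 869 had a higher mean after amphetamine (5.05%) and 513 a lower mean (2.98%). Over all genes tested, 8306 had a positive and 8897 a negative log2 fold change (48.3% and 51.7%), the median was -0.00, and the median standard error (SE) of a log2 fold change was 0.11. limma-voom with sample weights also called 0 genes, with 1833 at an unadjusted p under 0.05 (10.7%; 5.84% higher and 4.81% lower) and a smallest adjusted p of 0.226. DESeq2 called 40 of 16198 genes (0.247%), 34 higher (0.21%) and 6 lower (0.037%), with a smallest adjusted p of 0.00556, and 1542 at an unadjusted p under 0.05 (8.96%; 5.55% higher and 3.41% lower). In 131 genes (0.761%) the 5 amphetamine libraries did not overlap the 5 saline libraries, 84 lying above (0.488%) and 47 below (0.273%). Without amphetamine library 1 the count at an unadjusted p under 0.05 was 854, and the count without overlap was 157 to 530 with 1 library left out. The genes described next are therefore given by their values, without a call by edgeR.

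Totals ran from 34124515 to 43607596 counts in the saline libraries and from 31393788 to 53773028 in the amphetamine libraries. Markers of striatal projection neurons were abundant in all 10, as the labelled tissue requires. Ppp1r1b, the dopamine-regulated phosphatase inhibitor DARPP-32, ranged from 892 to 1446 CPM (counts per library brought to a common depth by TMM) in saline and from 1061 to 1365 CPM after amphetamine. All 10 markers of cortical excitatory neurons were also detected, at a summed level of 144 to 357 CPM in saline and 208 to 1024 CPM after amphetamine, and none was at 0. A score per library was taken as the mean over a list of the log2 CPM less the gene's mean over all 20 libraries. The cortical score was -0.43, -1.51, -1.52, -1.28 and -0.44 in saline libraries 1 to 5, and 0.92, -1.01, -0.06, 1.06 and 0.17 in amphetamine libraries 1 to 5. Of the amphetamine libraries, only library 2 lay within the saline range. The thalamic score split each group, at 1.22, -0.47, 0.21, 0.59 and -0.54 in saline and -0.38, 1.28, 1.18, -0.44 and -0.28 after amphetamine. In these bulk samples more cells of a type and more RNA per cell cannot be told apart. The mean cortical score was -1.04 in the overactive saline and 0.21 in the overactive amphetamine libraries. In the control line it was 0.17 in saline and 0.66 after amphetamine, so that overactive saline was the lowest of the 4 groups. Because the cortical score differed between the overactive groups, a second fit had that score as a covariate, and the plot of list medians shows every list in both fits. In the second fit 454 genes were at an unadjusted p under 0.05 (2.64%) and 0 passed edgeR's adjusted threshold. With the thalamic score added as well there were 484 (2.81%). As a covariate the thalamic score was taken without its members Gbx2 and Rora, here and wherever both scores are used.

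**Figure D1:**
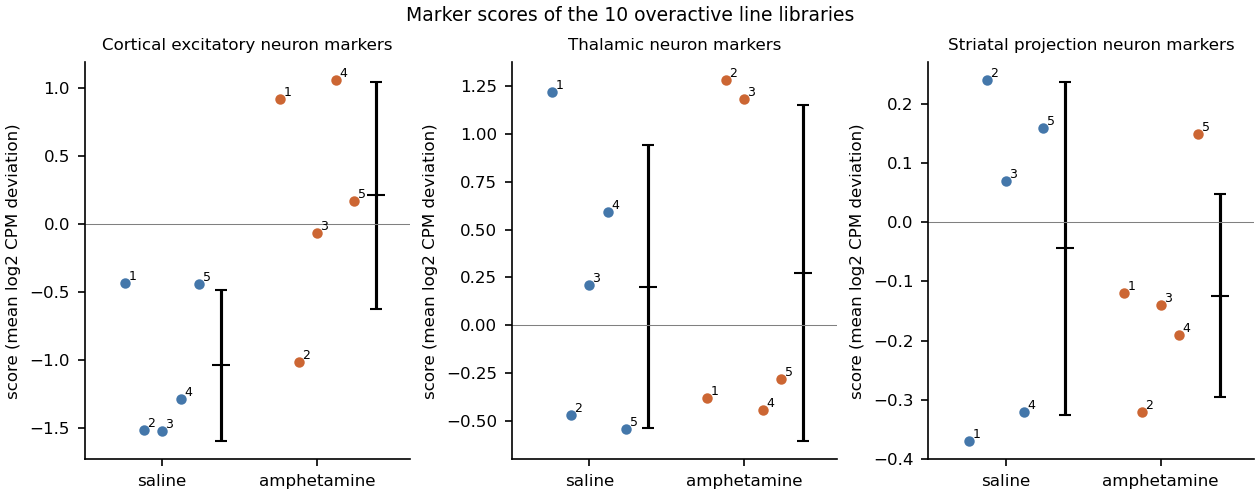
Marker scores (mean log2 CPM deviation from the mean of all 20 libraries) of the 5 saline and 5 amphetamine libraries of the overactive line, numbered by replicate, with mean and SD as bars. The cortical score reached at most -0.43 in saline and lay at -0.06 or above in 4 amphetamine libraries, while the thalamic and projection neuron scores overlapped between the groups.

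Among genes with a lower mean after amphetamine, the smallest p belonged to Tmem47, which encodes a membrane protein of cell junctions (chrX:81070698-81097872, GRCm38). Tmem47 measured 215, 216, 376, 228 and 355 CPM in saline libraries 1 to 5, and 145, 177, 181, 173 and 176 CPM in amphetamine libraries 1 to 5. Every amphetamine library lay below every saline library, and among the saline libraries 3 and 5 were far above the other 3. The mean was 278 ± 80.2 CPM in saline and 170 ± 14.3 CPM after amphetamine (SD, n = 5 each), or -0.71 on the log2 scale (SE 0.14), with an edgeR adjusted p of 0.357 and a DESeq2 adjusted p of 0.00556. With the cortical score as covariate it was -0.60 (SE 0.18). Without saline library 3, the highest, it was -0.58. In the control line the means were 180 CPM in saline and 170 CPM after amphetamine, so that the overactive saline mean was the highest of the 4 group means.

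Slc18a2, which encodes the vesicular monoamine transporter VMAT2 on which amphetamine acts, had the next smallest p on the lower side (chr19:59260896-59296012). The counted locus, chr19:59260877-59349722, runs well past the end of the gene, so reads of other transcripts within it cannot be told apart. Slc18a2 measured 12.1, 10.1, 12.4, 12.8 and 12 CPM in saline and 7.0, 8.94, 9.73, 8.56 and 7.53 CPM after amphetamine. The groups did not overlap, the lowest saline library standing just above the highest amphetamine library. Its log2 fold change was -0.51 (SE 0.11; edgeR adjusted p = 0.357, DESeq2 adjusted p = 0.0276), and -0.39 (SE 0.14) with the cortical covariate. In the control line the Slc18a2 means were 9.8 and 8.22 CPM (log2 -0.25, SE 0.11).

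Sox1, a transcription factor of neural progenitors and of some forebrain neurons (chr8:12395295-12400126), measured 93.3, 122, 118, 122 and 112 CPM in saline and 58.1, 74.5, 83.1, 67.0 and 71.7 CPM after amphetamine. The counted locus, chr8:12022386-12436898, was far longer than the gene, so these values may hold reads of other transcripts. The groups were apart, with a log2 fold change of -0.68 (SE 0.17) that was -0.38 (SE 0.21) with the cortical covariate. Gcn1l1 (now Gcn1), the ribosome-bound activator of the kinase Gcn2, had amphetamine libraries that lay close together. It measured 81.1, 92.6, 102, 92.9 and 78.8 CPM in saline and 71, 71.7, 73.8, 72.0 and 70.2 CPM after amphetamine. The amphetamine libraries kept within a few CPM of each other, below the whole saline range, and the log2 fold change was -0.32 (SE 0.10), or -0.29 (SE 0.13) with the covariate.

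Described on the lower side are 14 of the 15 genes with the smallest p. The others included Ccdc164 (now Drc1) and Iqcg, both of the dynein regulatory complex of motile cilia, at -0.38 (SE 0.11) and -0.28 (SE 0.08), and at -0.29 and -0.17 with the covariate. Their groups overlapped. Hmgn1, a nucleosome-binding protein, was separate between groups at a small log2 fold change of -0.19 (SE 0.05), with 85.3, 93.8, 88.4, 90.5 and 88.8 CPM in saline and 71.9, 77.5, 77.2, 82.1 and 83.9 CPM after amphetamine. Gria1, the GluA1 subunit of AMPA receptors, had means of 543 ± 30 and 494 ± 13.9 CPM (log2 -0.14, SE 0.04). Inpp5f, an inositol phosphatase, was at 281, 278, 320, 296 and 296 CPM in saline and 228, 284, 219, 204 and 240 CPM after amphetamine, only amphetamine library 2 reaching the saline range. Tmem91, Numa1 (a spindle and nuclear matrix protein), Inafm2 (listed as 5430417L22Rik), Atraid (listed as 0610007C21Rik) and Fndc9 (listed as C030019I05Rik) completed the 14, at log2 fold changes of -0.32, -0.14, -0.27, -0.37 and -0.61. With the covariate these were -0.16, -0.06, -0.33, -0.33 and -0.39, and those of Hmgn1, Gria1 and Inpp5f were -0.17, -0.10 and -0.17. Of the 14, 8 had groups that did not overlap, against 0.273% of all genes with amphetamine below. The 14 were chosen by p in these same libraries, which favours such separation. With the cortical covariate 1 kept under 50% of its log2 fold change and 9 had an unadjusted p under 0.05.

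On the higher side the smallest p belonged to Bcl2l11, which encodes the pro-apoptotic BH3 protein BIM (chr2:128126038-128162547). Bcl2l11 measured 3.54, 2.94, 3.6, 3.44 and 3.43 CPM in saline and 5.16, 4.35, 4.77, 4.99 and 4.18 CPM after amphetamine. The groups did not overlap, and the log2 fold change was 0.47 (SE 0.10; edgeR adjusted p = 0.357, DESeq2 adjusted p = 0.0276). It was 0.35 (SE 0.12) with the cortical covariate. Id2, an inhibitor of basic helix-loop-helix transcription factors (chr12:25093799-25097140), measured 46.0, 40.1, 52.4, 46.4 and 50 CPM in saline and 78.0, 55.8, 58.5, 80 and 58.7 CPM after amphetamine. The groups did not overlap, the highest values being those of amphetamine libraries 1 and 4, which also had the highest cortical scores. Its log2 fold change of 0.50 (SE 0.11) was 0.22 (SE 0.11) with the cortical covariate.

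Promoters of these 4 genes and of Fos are shown because they belong to the genes on which the comparison turns and because cyclic AMP and activity-driven factors act through known motifs. The sequences are from RefSeq on GRCm38.p6 and run from 250 bases before to 50 bases after the annotated start, 5′ to 3′ on the strand of the gene. Capitals mark a cyclic AMP response element (CRE, TGACGTCA), its half-site (TGACGT) or an EGR site (GCGNGGGCG), searched on both strands together with the AP-1 site (TGANTCA) and the CArG box of serum response factor. A half-site may lie within a full CRE. Tmem47 lies at chrX:81070394-81070693 (+), Slc18a2 at chr19:59260628-59260927 (+), Bcl2l11 at chr2:128125788-128126087 (+, 1 of 2 listed starts), Id2 at chr12:25096043-25096342 (-) and Fos at chr12:85473640-85473939 (+).
Tmem47: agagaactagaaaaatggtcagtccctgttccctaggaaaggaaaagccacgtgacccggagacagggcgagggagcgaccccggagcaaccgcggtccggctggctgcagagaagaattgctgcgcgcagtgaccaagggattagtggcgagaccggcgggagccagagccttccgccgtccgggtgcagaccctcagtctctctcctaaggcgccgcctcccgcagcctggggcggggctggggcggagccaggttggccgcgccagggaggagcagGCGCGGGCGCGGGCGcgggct
Slc18a2: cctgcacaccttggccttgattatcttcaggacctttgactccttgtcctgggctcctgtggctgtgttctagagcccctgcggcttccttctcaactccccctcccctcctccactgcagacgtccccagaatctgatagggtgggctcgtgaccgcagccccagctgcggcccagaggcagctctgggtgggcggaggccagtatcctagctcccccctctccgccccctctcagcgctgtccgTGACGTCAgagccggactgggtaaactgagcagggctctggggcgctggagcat
Bcl2l11: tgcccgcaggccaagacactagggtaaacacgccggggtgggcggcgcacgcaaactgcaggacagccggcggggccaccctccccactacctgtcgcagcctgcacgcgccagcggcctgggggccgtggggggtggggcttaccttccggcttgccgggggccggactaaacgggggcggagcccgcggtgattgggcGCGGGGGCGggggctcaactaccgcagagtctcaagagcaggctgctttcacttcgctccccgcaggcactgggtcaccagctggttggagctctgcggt
Id2: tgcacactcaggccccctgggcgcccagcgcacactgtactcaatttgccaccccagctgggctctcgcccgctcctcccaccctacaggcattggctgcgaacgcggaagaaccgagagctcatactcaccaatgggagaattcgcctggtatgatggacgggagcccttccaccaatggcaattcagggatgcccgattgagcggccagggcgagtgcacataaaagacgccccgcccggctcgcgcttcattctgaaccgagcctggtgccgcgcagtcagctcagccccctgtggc
Fos: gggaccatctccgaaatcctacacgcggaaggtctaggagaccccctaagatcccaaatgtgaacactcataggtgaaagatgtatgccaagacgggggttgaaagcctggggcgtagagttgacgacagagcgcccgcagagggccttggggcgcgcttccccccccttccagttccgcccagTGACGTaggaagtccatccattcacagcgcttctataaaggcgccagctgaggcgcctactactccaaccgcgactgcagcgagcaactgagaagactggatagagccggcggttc

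Slc18a2 held a full CRE that began 4 bases before the start. Overlapping EGR sites began 29 and 35 bases after the start of Tmem47, and 1 EGR site began 50 bases before that of Bcl2l11. Fos held a CRE half-site 66 bases before its start, and in the window of Id2 none of these letters were found. A full CRE was present in 1.84% of 27025 RefSeq promoters of this length and in 3.02% of the 11736 of genes tested, and an EGR site in 5.56% and 10.3%. Of the 29 genes described for their small p, 26 had a promoter in the table. An EGR site lay in 4 of 14 promoters of the higher genes (28.6%), in 3 of 12 of the lower genes (25.0%) and in 8 of 27 of immediate early genes (29.6%). A CRE half-site lay in 1 of 14 (7.14%), 2 of 12 (16.7%) and 8 of 27 (29.6%), against 10.8% of promoters of genes tested. A full CRE lay in 0 of 14, 1 of 12 and 1 of 27, and the AP-1 site and the CArG box each in 0 of 14, 1 of 12 and 0 of 27, against 5.05% and 1.32% of promoters of genes tested. These are matches of letters and no measure of binding.

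**Figure D2:**
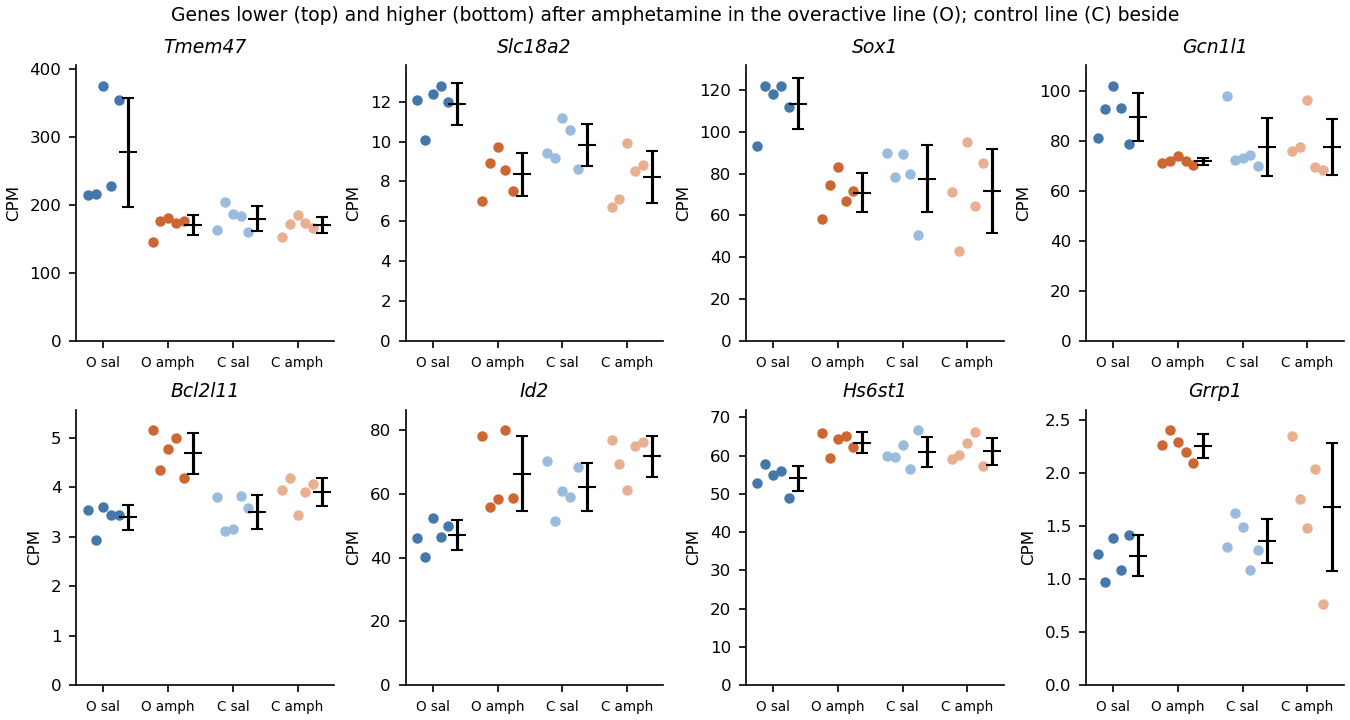
CPM of 8 genes in the 20 libraries (O, overactive line; C, control line; sal, saline; amph, amphetamine), 1 point per library, with mean and SD beside each group. In the overactive line the amphetamine libraries of Tmem47, Slc18a2, Sox1 and Gcn1l1 all lay below the saline libraries, and those of Bcl2l11, Id2, Hs6st1 and Grrp1 all lay above.

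Also on the higher side, Hs6st1, which adds sulfate to heparan sulfate chains, measured 52.8, 57.7, 54.8, 55.9 and 48.9 CPM in saline and 66.0, 59.3, 64.2, 65.1 and 62.3 CPM after amphetamine. The groups were apart by a narrow margin, and the log2 fold change of 0.23 (SE 0.05) was 0.19 (SE 0.07) with the cortical covariate. Dock9, an activator of the small GTPase Cdc42, was at a log2 fold change of 0.34 (SE 0.08), or 0.31 (SE 0.11) with the covariate. Its saline libraries were at 137, 124, 113, 111 and 119 CPM and its amphetamine libraries at 158, 136, 161, 148 and 162 CPM, saline library 1 standing just above amphetamine library 2. Grrp1, a DESeq2 call of low abundance, measured 1.24, 0.97, 1.39, 1.09 and 1.42 CPM in saline and 2.27, 2.41, 2.3, 2.2 and 2.1 CPM after amphetamine. Its groups were well apart, and its log2 fold change of 0.88 (SE 0.21) was 0.84 (SE 0.28) with the covariate.

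For most of the higher genes the value was smaller in the fit with the cortical covariate. Of the 15 with the smallest p, 11 kept under 50% of their log2 fold change and 4 had an unadjusted p under 0.05 in that fit. The groups did not overlap in 8 of the 15, against 0.488% of all genes with amphetamine above. The 15 were chosen by p in these same libraries, which favours such separation. Rtn4rl2, a Nogo receptor family member, stood highest of the 15 at log2 1.67 (SE 0.40), which was 0.16 (SE 0.17) with the covariate. It measured 5.81, 2.71, 3.67, 3.5 and 7.01 CPM in saline and 18.6, 4.41, 9.0, 25.9 and 14.2 CPM after amphetamine, the order of the cortical score being kept among the amphetamine libraries. Frzb, a secreted Wnt antagonist, Gucy2g, a membrane guanylyl cyclase, Fgf5, a fibroblast growth factor, and Fam163b had log2 fold changes of 1.13, 1.42, 1.14 and 0.87, and of 0.32, 0.44, 0.36 and 0.20 with the covariate. Chrm3, the M3 muscarinic receptor, Pde1a, a calmodulin-dependent phosphodiesterase, Olfm1, a secreted olfactomedin, Kcnab2, a potassium channel beta subunit, Pgm2l1, which makes glucose 1,6-bisphosphate, and the long noncoding RNA 1700020I14Rik had log2 fold changes of 0.56, 0.52, 0.64, 0.31, 0.35 and 0.36. With the covariate these were 0.18, 0.28, 0.16, 0.14, 0.11 and 0.16. Of the 39 genes called by DESeq2 with a mean of at least 1 CPM, 34 were higher and 5 lower, 20 were among the 29 described for a small edgeR p, and 22 kept under 50% of their log2 fold change with the covariate.

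**Figure D3:**
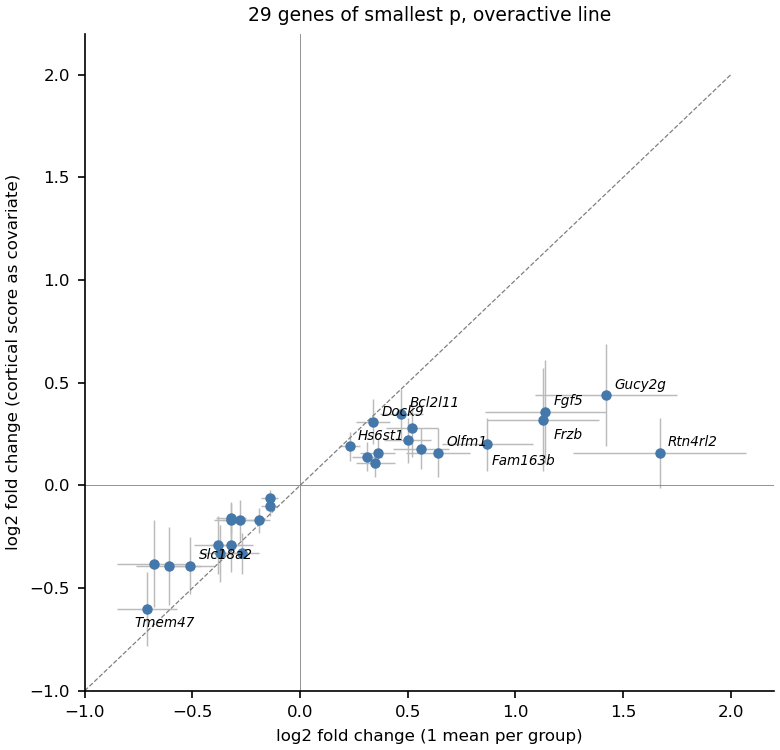
Log2 fold change (amphetamine over saline, overactive line) of the 29 genes described for a small edgeR p, from the fit with 1 mean per group (x axis) and from the fit with the cortical score as covariate (y axis). Bars are SE and the dashed line marks equal values. Rtn4rl2 stood at 1.67 and 0.16, whereas Tmem47 stood at -0.71 and -0.60.

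Markers of cortical excitatory neurons had the highest median of the 47 lists examined. All 10 had a higher mean after amphetamine, 9 of them at an unadjusted p under 0.05 (8.03% of all genes tested), and their median log2 fold change was 1.48. None passed edgeR's adjusted threshold. Slc17a7, the vesicular glutamate transporter VGLUT1 of cortical neurons, measured 189, 98.1, 78.5, 90.5 and 227 CPM in saline and 577, 127, 271, 715 and 381 CPM after amphetamine. Amphetamine library 2 lay inside the saline range and the other 4 above it. The log2 fold change was 1.6 (SE 0.41), a 3.03-fold ratio of means. The transcription factors Neurod6 (log2 1.54, SE 0.50), Tbr1 (1.30, SE 0.36) and Emx1 (1.62, SE 0.44) and the synaptic zinc transporter Slc30a3 (1.68, SE 0.41) were alike. The score is made of this list, and with it as covariate the list's median was -0.04, with 4 of 10 higher. Slc17a7 was then at 0.04 (SE 0.12) and Slc30a3 at 0.39 (SE 0.27).

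By cortical layer, the layer 6 list had 11 of 14 members higher and a median of 0.37, which was -0.00 with the cortical covariate. Of its members 7 higher and 1 lower were at an unadjusted p under 0.05 (57.1%, against 8.03% of all genes). The upper layer list had a median of 0.02 (7 of 12 higher) and the layer 5 list one of 0.06 (8 of 12 higher). Within layer 6, Ntng2, an adhesion protein, was at 0.90 (SE 0.28), Cplx3, a complexin, at 1.06 (SE 0.37) and Ctgf, a matricellular protein, at 0.84 (SE 0.34), and with the covariate they were at -0.03, 0.07 and -0.27. Syt6, a synaptotagmin also found in striatal cells, was at -0.36 (SE 0.15). Cck, the neuropeptide cholecystokinin, was at 17.7 to 41.8 CPM in saline and 32.1 to 112 CPM after amphetamine (log2 1.27, SE 0.35), and at 0.04 (SE 0.12) with the covariate. Hippocampal markers had a median of -0.15 (4 of 11 higher), which was 0.07 with the covariate (7 of 11), and cortical interneuron markers one of 0.10 (10 of 13 higher).

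The immediate early genes of the overactive line did not have a higher mean level as a group at this time point. Of 34, 13 were higher and 21 lower, the median log2 fold change was -0.08, and 3 higher and 1 lower members had an unadjusted p under 0.05 (11.8% against 8.03% of all genes). In the covariate fit 7 were higher and 27 lower, with a median of -0.22. Fos measured 13.5, 9.13, 32.5, 11.9 and 8.27 CPM in saline and 21.3, 10.9, 7.55, 17.7 and 12 CPM after amphetamine. Saline library 3 was the highest of the 10 and the groups overlapped over most of their range (log2 -0.12, SE 0.41; -0.39, SE 0.60, with the covariate). Arc, which encodes a synaptic protein that caps AMPA receptor numbers, measured 85.0, 111, 286, 99 and 80.4 CPM in saline and 173, 82.7, 76.3, 215 and 141 CPM after amphetamine (log2 0.06, SE 0.45; -0.54, SE 0.66, with the covariate).

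Saline library 3 was the highest saline library for Egr1 (454 CPM), Npas4 (69.0 CPM), Nr4a1 (170 CPM), Junb (90.3 CPM) and Fosb (46.0 CPM) as well, and its immediate early score was 0.64, against -0.21 to -0.14 in the other 4 saline libraries. In the amphetamine libraries the score was 0.20, -0.32, -0.32, 0.28 and 0.09. Libraries 1 and 4 were thus the highest and libraries 2 and 3 the lowest. Without saline library 3 the list's median was 0.15, the log2 fold changes of Fos, Arc, Egr1, Nr4a1, Junb and Npas4 were 0.38, 0.55, 0.14, 0.26, 0.19 and 0.03, and that of Fosb, -0.51 (SE 0.29) with all 10 libraries, was -0.03. The smallest p values of the list were those of Klf6 (0.26, SE 0.08), a zinc finger factor, Nr4a2 (1.30, SE 0.44), an orphan nuclear receptor, and Ier2 (0.67, SE 0.23) on the higher side, and of Atf3 (-0.61, SE 0.27), a stress-induced factor, on the lower side. Nr4a2 measured 15.5, 9.06, 18.9, 11.3 and 28.2 CPM in saline and 55.6, 10.2, 29.7, 56.7 and 51.7 CPM after amphetamine. Amphetamine library 2 lay within the saline range and library 3 just above it. Nr4a2 is also a marker of deep cortical cells, and with the cortical covariate its log2 fold change was -0.22 (SE 0.35). Klf6, Ier2 and Atf3 were at 0.12, 0.22 and -0.61 in that fit.

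**Figure D4:**
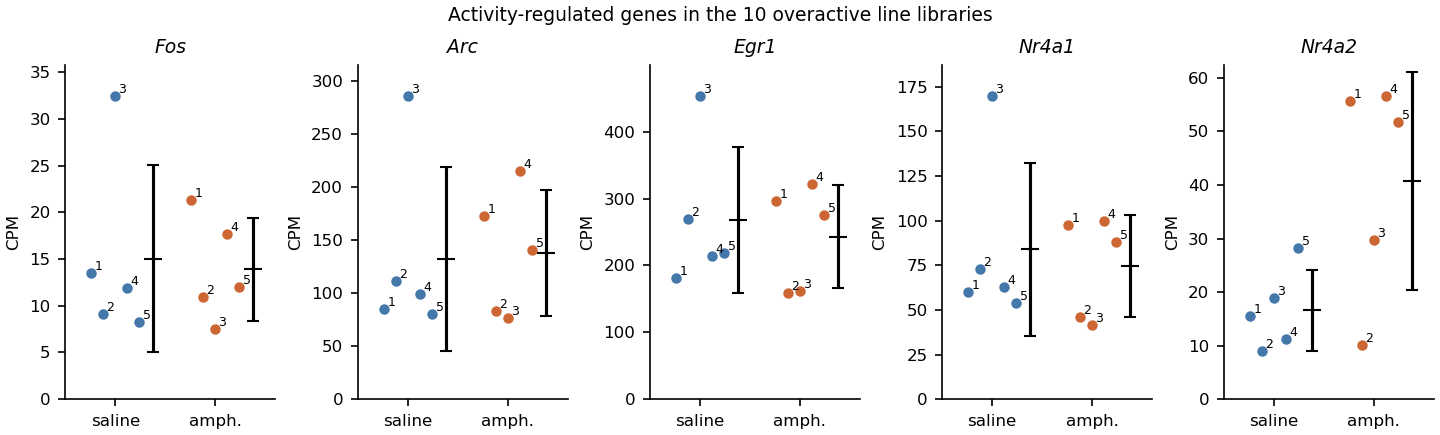
CPM of 5 immediate early genes in the overactive line, 1 numbered point per library with mean and SD beside each group. For Fos, Arc, Egr1 and Nr4a1 saline library 3 was the highest of all 10, at 32.5, 286, 454 and 170 CPM, whereas Nr4a2 was highest in amphetamine libraries 1, 4 and 5.

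Slower activity-regulated genes split evenly, with 14 of 28 higher and a median of 0.00, and with 5 higher and 3 lower at an unadjusted p under 0.05 (28.6% against 8.03% of all genes). In the covariate fit 8 were higher and 20 lower, the median was -0.10, and 1 was at an unadjusted p under 0.05 (2.64% of all genes). The higher ones were Bdnf, Nrn1, Nptx1, Gpr22 and Mfap3l. Bdnf, the neurotrophin carried to the striatum from cortex, measured 8.6, 3.41, 6.81, 7.54 and 6.42 CPM in saline and 20, 6.0, 8.83, 22.4 and 12.2 CPM after amphetamine (log2 1.09, SE 0.35), and its value with the cortical covariate was -0.08 (SE 0.28). Nrn1, a neurite-promoting surface protein (1.21, SE 0.31), Nptx1, a synaptic pentraxin (0.80, SE 0.25), and Gpr22, an orphan receptor (0.48, SE 0.12), were at 0.38, -0.13 and 0.13 with it. On the lower side were Odc1, the first enzyme of polyamine synthesis (-0.12, SE 0.04), the tachykinin precursor Tac1 (-0.26, SE 0.12) and the kinase Pim1 (-0.42, SE 0.20), which were at -0.11, -0.21 and -0.30 with the covariate. Feedback regulators of MAP kinase, such as the Dusp phosphatases and Sprouty proteins, had 11 of 17 higher, a median of 0.02 and no member at an unadjusted p under 0.05. With the covariate 5 were higher and the median was -0.11. Dusp1 was at 0.17 (SE 0.22), and at 0.01 (SE 0.30) with the covariate.

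In the dopamine system itself, Slc18a2 was the only one of 11 synthesis, transport and breakdown genes at an unadjusted p under 0.05 (9.09%), against 8.03% of all genes, and the list's median was -0.06 with 4 higher and 7 lower. The median was 0.02 with the cortical covariate, with 6 higher and 5 lower. Th, the rate-limiting enzyme of dopamine synthesis, measured 8.09, 7.04, 8.73, 10.5 and 5.53 CPM in saline and 6.1, 7.69, 6.58, 5.6 and 6.02 CPM after amphetamine, with overlapping groups (log2 -0.32, SE 0.25; 0.02, SE 0.32, with the covariate). The dopamine transporter Slc6a3 was below 1 CPM in every library. The breakdown enzymes Maoa and Maob were at 0.04 (SE 0.11) and 0.07 (SE 0.12).

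Genes of dopamine reception and cyclic AMP signalling were lower in 19 of 22 cases, with a median of -0.10 against -0.00 for all genes. Only 1 higher and 2 lower were at an unadjusted p under 0.05 (13.6% against 8.03% of all genes). With the cortical covariate 17 of 22 were lower, the median was -0.07 and 0 were at an unadjusted p under 0.05. The D1 receptor gene (listed as Drd1a) measured 179, 291, 260, 180 and 279 CPM in saline and 224, 181, 194, 207 and 284 CPM after amphetamine. The D2 receptor gene Drd2 measured 140, 216, 213, 161 and 228 CPM in saline and 160, 149, 172, 170 and 202 CPM after amphetamine. Both receptors overlapped between the groups (log2 -0.12, SE 0.13, and -0.17, SE 0.12). Drd3, the D3 receptor of ventral striatum, measured 16.6, 26.5, 19.0, 22.9 and 20.5 CPM in saline and 13.4, 13.6, 12, 9.71 and 20.4 CPM after amphetamine. Amphetamine library 5 alone reached the saline range, and the log2 fold change of -0.61 (SE 0.28) was -0.24 (SE 0.37) with the cortical covariate. Prkar2b, a regulatory subunit of protein kinase A, was at -0.16 (SE 0.07), and Gnb1, a G protein beta subunit, at 0.11 (SE 0.04), or -0.14 and 0.04 with the covariate.

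The opioid and tachykinin peptides are the neuropeptides of the projection neurons, and the main ones had lower means after amphetamine. The prodynorphin gene Pdyn of D1 cells measured 101, 145, 185, 114 and 134 CPM in saline and 101, 114, 86.0, 99 and 133 CPM after amphetamine (log2 -0.35, SE 0.16). The proenkephalin gene Penk of D2 cells had means of 1223 ± 248 and 1024 ± 148 CPM (-0.26, SE 0.13). Tac1 measured 190, 292, 310, 217 and 272 CPM in saline and 208, 206, 181, 217 and 255 CPM after amphetamine. In all 3 the groups overlapped, saline libraries 1 and 4 lying with the amphetamine libraries. The peptide and receptor list had a median of -0.15 (3 of 11 higher), with 2 lower at an unadjusted p under 0.05 (18.2%, against 8.03% of all genes). With the cortical covariate its median was 0.07 (6 of 11 higher, 0 at an unadjusted p under 0.05), while Pdyn, Penk and Tac1 were at -0.21, -0.19 and -0.21.

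Markers of the projection neurons as cells showed the same low values. Those shared by D1 and D2 cells were lower in 21 of 24 cases with a median of -0.08 and no unadjusted p under 0.05. Those of D1 cells were lower in 9 of 11 (median -0.11) and those of D2 cells in 8 of 11 (median -0.17). At an unadjusted p under 0.05 were 1 higher and 3 lower D1 markers (36.4%) and 2 lower D2 markers (18.2%), against 8.03% of all genes. With the cortical covariate 0 of either list were (2.64% of all genes). In that fit the shared, D1 and D2 markers had medians of -0.07, -0.09 and -0.17. They were lower in 21 of 24, 9 of 11 and 8 of 11 cases. Isl1, the factor that specifies D1 cells, was at -0.48 (SE 0.15), and at -0.04 (SE 0.11) with the cortical covariate. The D2 cell factor Sp9 was at -0.22 (SE 0.10), or -0.10 with the covariate. The shared marker score was -0.37, 0.24, 0.07, -0.32 and 0.16 in saline and -0.12, -0.32, -0.14, -0.19 and 0.15 after amphetamine, so that the lowest saline libraries, 1 and 4, were those with the higher thalamic scores. Striosome markers had a median of -0.15 (3 of 10 higher) and striatal interneuron markers one of -0.12 (4 of 13 higher). These medians were -0.06 (3 of 10 higher) and 0.11 (10 of 13 higher) with the cortical covariate, and 0.04 and 0.16 with both scores. The part of tissue composition in these small medians was not tested, and with both the cortical and the thalamic score as covariates the median of the shared markers was 0.10 and that of the dopamine reception list 0.05.

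Genes of vesicle fusion and release were higher in 24 of 27 cases, with a median of 0.16 and 12 higher members at an unadjusted p under 0.05 (44.4%, against 5.05% of all genes). Syt1, the calcium sensor of release, measured 1166, 1175, 1177, 1137 and 1147 CPM in saline and 1482, 1183, 1264, 1501 and 1288 CPM after amphetamine. Its groups did not overlap, and its log2 fold change was 0.21 (SE 0.07). Snap25, a SNARE protein, was at 0.27 (SE 0.08), Stx1a, its syntaxin partner, at 0.86 (SE 0.24) and Cplx1, a complexin, at 0.25 (SE 0.07). With the cortical covariate these were 0.04, 0.05, -0.05 and 0.20, and the median of the list was 0.02.

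Of 50 potassium channel genes, 38 were higher with a median of 0.12, and 16 higher and 1 lower were at an unadjusted p under 0.05 (34.0%, against 8.03% of all genes). The GIRK channel genes Kcnj3 (0.59, SE 0.15), Kcnj6 (0.52, SE 0.19) and Kcnj9 (0.56, SE 0.13) were at 0.22, -0.08 and 0.20 with the covariate. Kcnj9 measured 66.0, 48.8, 45.9, 54.4 and 51.8 CPM in saline and 90.3, 73.3, 75.8, 88.5 and 64.4 CPM after amphetamine, overlapping only between saline library 1 and amphetamine library 5. Kcnn3, a small conductance channel opened by calcium, was the lower one at -0.26 (SE 0.10), or -0.07 with the covariate. The list's median with the cortical covariate was 0.05.

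Receptor genes for glutamate and GABA had medians near that of all genes. AMPA and kainate receptor genes had a median of 0.04 (9 of 16 higher), NMDA and metabotropic receptor genes 0.05 (8 of 13) and GABA receptor genes 0.06 (9 of 14). The shares at an unadjusted p under 0.05 were 31.2% (4 higher, 1 lower), 7.69% (1 lower) and 21.4% (2 higher, 1 lower). Of all genes 8.03% were at such a p in these lists' fit. Within them Cacng7, an AMPA receptor auxiliary subunit, measured 146, 142, 147, 152 and 152 CPM in saline and 188, 171, 159, 183 and 163 CPM after amphetamine, without overlap (log2 0.23, SE 0.05; 0.14 with the cortical covariate; DESeq2 adjusted p = 0.031). The GABA-B receptor gene Gabbr2 was at 0.48 (SE 0.14) and the GABA-A subunit gene Gabra5 at 0.25 (SE 0.06), both without overlap, and with the cortical covariate they were at 0.16 (SE 0.13) and 0.11 (SE 0.06). Calcium channel genes had a median of 0.05, serotonin receptor genes one of -0.09 and regulators of G protein signalling one of 0.04. Endocannabinoid genes were higher in 8 of 9 cases with a median of 0.12. Of these genes 3 higher were at an unadjusted p under 0.05 (33.3%, against 8.03% of all genes). With the covariate their median was -0.00, 4 of 9 were higher and 0 were at an unadjusted p under 0.05. The list was led by the degrading enzyme Faah (0.42, SE 0.14) and the synthetic enzyme Dagla (0.27, SE 0.10). With the covariate Faah and Dagla were at 0.02 and 0.05.

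Stress and metabolic lists held few genes at an unadjusted p under 0.05. Heat shock genes were lower in 26 of 29 cases (median -0.11), with 1 at an unadjusted p under 0.05 (3.45%, against 8.03% of all genes). Hspa1a, the inducible HSP70, measured 5.32, 5.8, 16.3, 6.42 and 6.83 CPM in saline and 6.22, 5.94, 4.15, 7.32 and 4.96 CPM after amphetamine. Saline library 3, the library highest in immediate early genes, was again the high one. Without it the median of the heat shock list was -0.06, and with the cortical covariate and all libraries it was -0.05. Unfolded protein response genes were lower in 16 of 19 (median -0.08), and glucocorticoid-responsive genes were even, with 11 of 22 higher and a median of 0.00. Their well-known member Fkbp5 was at -0.07 (SE 0.11).

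Cholesterol synthesis genes were higher in 22 of 24 cases, by a median of 0.12. The median was -0.01 with the cortical covariate, and 11 of 24 were higher. Ribosomal protein genes were lower in 71 of 78 cases by a median of only -0.05. Genes of oxidative phosphorylation (44 of 72 higher), of glycolysis (17 of 23) and of the circadian clock (12 of 19) had medians of 0.02, 0.02 and 0.04, genes of the oxidative stress response (7 of 20) one of -0.04, and cold-inducible and RNA-binding protein genes (5 of 12) one of -0.01. With the covariate the glycolysis and clock medians were -0.02 and -0.03. The clock gene Per2 was at -0.04 (SE 0.14), or -0.22 (SE 0.18) with the covariate.

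The lists of cells that line the ventricles had the lowest medians. Ependymal markers were lower in 15 of 16 cases with a median of -0.56, 1 of them at an unadjusted p under 0.05 (6.25%, against 8.03% of all genes). Foxj1, the master factor of motile cilia, measured 19.1, 12.2, 18.3, 21.1 and 22.3 CPM in saline and 6.41, 16.6, 21.1, 9.61 and 9.59 CPM after amphetamine. Amphetamine libraries 2 and 3 lay within the saline range and the other 3 below it (log2 -0.56, SE 0.28; -0.23, SE 0.33, with the cortical covariate). The median of the ependymal list with that covariate was -0.24, with 15 of 16 lower. With both the cortical and the thalamic score the ependymal median was -0.55. Choroid plexus markers were lower in 12 of 12 with a median of -0.60, none at an unadjusted p under 0.05. With the cortical covariate their median was 0.32 with 9 of 12 higher, and with both the cortical and the thalamic score it was -1.54. Their member Ttr, the transthyretin secreted by choroid plexus, ran from 1.42 to 739 CPM in saline and from 7.22 to 832 CPM after amphetamine. The summed choroid plexus markers spanned 20.8 to 888 CPM in saline and 28.0 to 959 CPM after amphetamine, and the median with 1 library left out ran from -1.97 to 0.17, its highest value being that without saline library 4. Septal and hypothalamic markers had a median of -0.48 (2 of 15 higher), and their score was 1.62, -1.01, 0.97, 1.49 and -0.44 in saline and -0.28, 1.39, 0.64, -0.22 and -0.51 after amphetamine. Their median was 0.07 with the cortical covariate (9 of 15 higher) and -0.09 with both scores. The cilia genes Ccdc164 and Iqcg named above go with these lists in function, and the part of ependymal RNA in their values was not tested.

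Other non-neuronal lists had medians nearer 0. Medians were -0.07 for astrocytes (6 of 19 higher), 0.00 for oligodendrocytes (9 of 18), -0.09 for their precursors (3 of 14), -0.08 for microglia (7 of 19), 0.08 for endothelial and mural cells (16 of 22) and 0.05 for meningeal fibroblasts (11 of 18). Thalamic markers had a median of 0.13 (11 of 16 higher), and 0.44 with the cortical covariate. In that fit the medians were also 0.17 for oligodendrocytes, 0.06 for their precursors, 0.00 for astrocytes and 0.32 for meningeal fibroblasts. Blood genes (4 tested) had a median of 0.06, which was 1.22 with the covariate, -1.83 without amphetamine library 5 and 0.67 without saline library 2, and they ranged in sum from 9.61 to 119 CPM in saline and 8.25 to 197 CPM after amphetamine. Among astrocyte genes, the intermediate filament Vim was at -0.44 (SE 0.16) and the factor Sox9 at -0.27 (SE 0.10), or -0.24 and -0.17 with the covariate. Tyrobp, a microglial adaptor protein, measured 10.9, 10.7, 10.9, 10.7 and 13.5 CPM in saline and 6.57, 10.4, 9.58, 8.68 and 9.69 CPM after amphetamine, just without overlap (-0.34, SE 0.14).

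**Figure D5:**
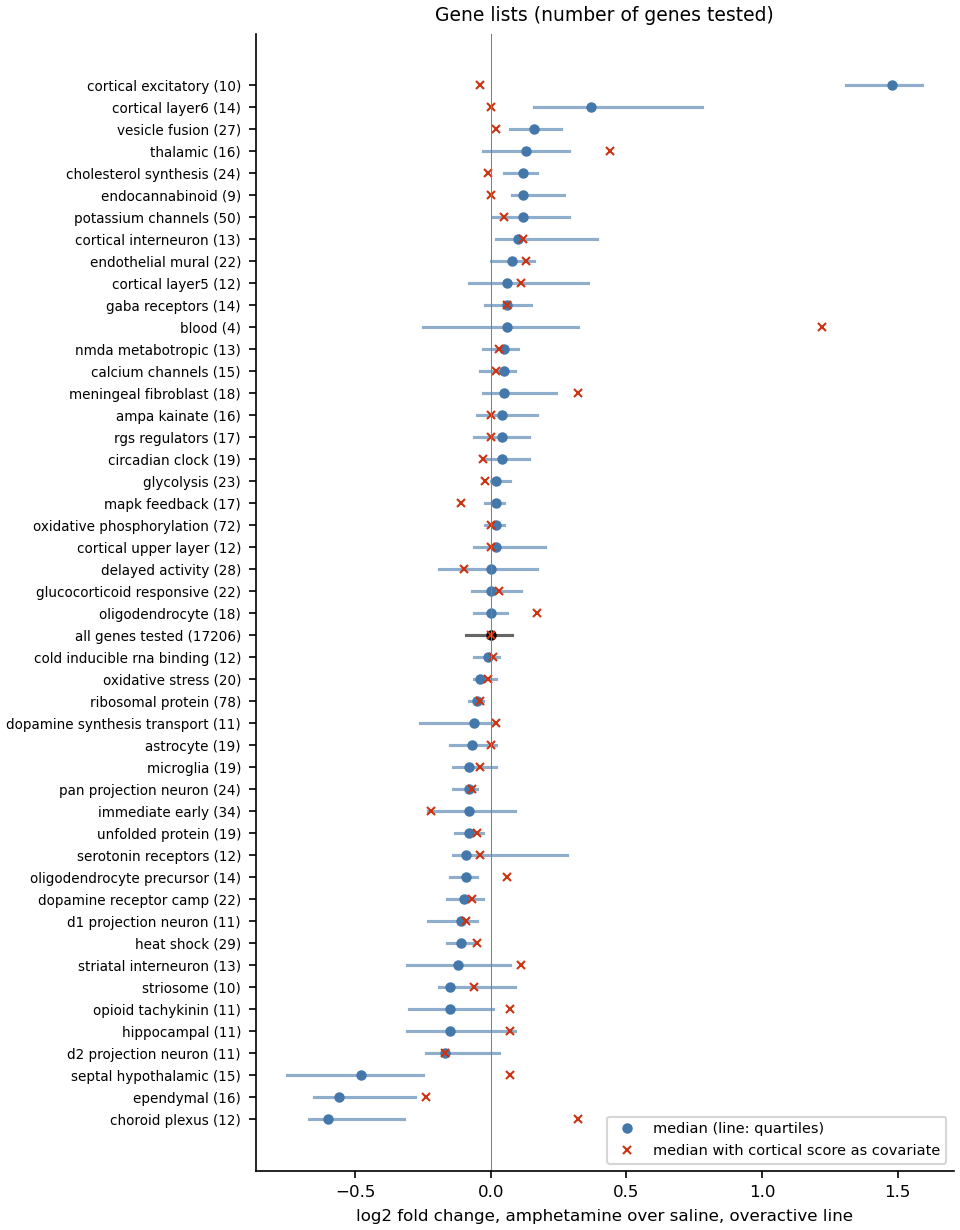
Median log2 fold change (amphetamine over saline, overactive line) of 47 gene lists and of all genes tested, with quartiles as lines and the number of genes in parentheses; crosses are medians with the cortical score as covariate. Cortical excitatory markers stood at 1.48 and choroid plexus markers at -0.60, and all genes at -0.00.

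Set against the control line, the amphetamine response differed in 0 of 17206 genes (0.0%) by edgeR's test of the difference between the lines (smallest adjusted p 0.9999, 510 genes or 2.96% at an unadjusted p under 0.05). The control line itself had 0 genes past edgeR's adjusted threshold and 957 at an unadjusted p under 0.05 (5.56%). The comparisons of the lines share no library. Of the 1382 genes at an unadjusted p under 0.05 in the overactive line, 1104 (79.9%) had the same sign in the control line, against 60.4% of all genes, and Pearson's r between the log2 fold changes was 0.15 across genes, which are not independent. The cortical excitatory list was higher in both lines, by medians of 1.48 and 0.45. Its member Slc17a7 had saline and amphetamine means of 137 and 414 CPM in the overactive line, and of 363 and 503 CPM in the control line.

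Immediate early genes had a median of -0.08 in the overactive line and 0.19 in the control line, where 33 of 34 were higher. Without saline library 3 the overactive median was 0.15 and Fos was at 0.38. For Fos the control line means were 10.4 and 16.4 CPM (log2 0.66, SE 0.42), and the difference between the lines of -0.78 had an unadjusted p of 0.197. Genes of dopamine reception and cyclic AMP signalling were higher in 18 of 22 cases in the control line (median 0.06), and shared projection neuron markers in 18 of 24 (median 0.07). Ependymal markers had medians of -0.56 and 0.12. Tmem47 had the difference with an unadjusted p of 0.00409 (-0.63), Hs6st1 one of 0.00749 (0.23), Gria1 one of 0.00343 (-0.19) and Cplx1 one of 0.00184 (0.33), none of which passed edgeR's adjustment. For Hs6st1 the means were 54.0 and 63.4 CPM in the overactive line and 61.0 and 61.2 CPM in the control line, so that the overactive saline mean was the lowest of the 4. In all 15 higher genes of smallest p the overactive saline mean lay below the control saline mean. In 10 of the 14 lower genes it lay above. These genes were chosen with the same overactive saline libraries, so these counts are no separate test.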

How the data were processed

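Striatal RNA of 20 mice was sequenced with 1 library each. The authors deposited a table of expected counts per locus, not scaled between libraries, and 93.9% of its values were whole within 0.01. Per the submitters' processing notes the builds were mm10 and GRCm38. Aligner, counter and use of strand are not given in the sources used here, so reads of overlapping and antisense genes cannot be told apart. Of 37051 loci, 10576 had no symbol and were left out, and 26475 were kept, 626 of them with several symbols. Of 25849 loci with a single symbol, 23877 matched GENCODE M21 (2021 by an older symbol), whose gene positions are given. The counted locus can be much longer than the gene, as for Slc18a2, Sox1, Fndc9, Gpr22, Iqcg and Atraid, and its counts may then hold other transcripts.

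Counts were rounded and fitted in R 4.3.3 with edgeR 4.0.16 (TMM scaling, filterByExpr, quasi-likelihood, 1 mean for each of 4 groups, all 20 libraries, two-sided, Benjamini-Hochberg over 17206 genes). DESeq2 1.42.0, limma 3.58.1 (voom with sample weights), other scalings and filters, the replicate number as a block, marker scores as covariates and leaving out each library were alternatives. The edgeR model was tested on simulated data. Scores used log2 CPM with a prior count of 2. No set test was run.

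The genes and lists were chosen with earlier results of these data known. Named were the 15 genes of smallest p in each direction with a mean of at least 1 CPM, DESeq2 calls of at least 1 CPM, up to 2 members of each list per direction at an unadjusted p under 0.05, and set genes. Further members of the lists are named as examples, chosen after their values were seen. A few genes these rules name are not reported here.

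The replicate numbers were not used as pairs in the main fit, since same-numbered overactive saline and amphetamine libraries did not deviate together. These 5 pairs are too few to show a weak shared effect, and libraries of the control line were not compared in this way. Within the overactive saline and amphetamine groups no library was a copy of another: chi-square per degree of freedom between libraries of a group was 17.5 or more. Library totals ran from 31393788 to 53773028 counts, and with 5 libraries a group log2 fold changes had a median SE of 0.11.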

Additional observations from a re-analysis of the deposited data

Results flagged for a closer look

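Of 248 groups of 5 libraries examined for named genes and list scores, 19 held a library that lay far from the other 4 relative to the range of its group. For independent, normally distributed values the rule would flag about 1 in 20 groups. The named genes share the same libraries and were partly chosen by their values, so that rate is no chance rate for them. Of the 19, 15 were in saline and 4 in amphetamine, and 10 were saline library 3.

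Saline library 3 was far above the other saline libraries for Fos (32.5 CPM), Fosb (46.0 CPM), Junb (90.3 CPM), Arc (286 CPM), Nr4a1 (170 CPM), Atf3 (1.66 CPM) and Dusp1 (27.4 CPM), for the immediate early score (0.64), and for the chaperone genes Hspa1a (16.3 CPM) and Dnajb4 (123 CPM). Saline library 1 was far above the rest for Mgst3, a membrane glutathione transferase (35.2 CPM), and Ttc12 (7.29 CPM). Saline library 2 was far below for Bcl2l11 (2.94 CPM). Saline library 5 was far above for Stard8 (12.7 CPM) and Tyrobp (13.5 CPM).

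Amphetamine library 1 was far below the other amphetamine libraries for Tmem47 (145 CPM). Amphetamine library 5 was far above them for the glutamate receptor gene Grm7 (119 CPM) and for Syt6 (168 CPM), and amphetamine library 3 for the ciliary dynein gene Dynlrb2 (2.52 CPM).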

How the results depend on the processing

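The count of 0 genes held in the overactive line under every alternative but DESeq2, which called 40, and the counts of 0 for the control line and for the difference between the lines held under all that were run. At an unadjusted p under 0.05 the 1382 genes became 454 with the cortical score and 484 with the cortical and thalamic scores as covariates, and 854 to 1820 with 1 library left out, the lowest being without amphetamine library 1. The 131 genes without overlap became 157 to 530 with 1 library left out, the highest being without amphetamine library 2. Leaving out a library cannot lower this count, and why it rose more for some libraries was not tested. Same-numbered overactive libraries did not deviate together (r -0.23 to 0.12), and with the replicate block 0 genes passed and 1464 were at an unadjusted p under 0.05. In that fit the smallest edgeR adjusted p was 0.256 in the overactive line and 0.305 in the control line. Of 2417 values of 121 named genes under the alternatives, 2337 kept their sign and side of the threshold, 39 passed it under DESeq2 and 41 changed sign. With the cortical covariate the log2 fold change became -0.22 for Nr4a2, -0.05 for Cacnb3, 0.02 for Cacna2d2, -0.05 for Stx1a, -0.09 for Stard8, -0.03 for Pamr1, -0.03 for Ntng2, -0.05 for Crhbp, -0.54 for Arc, 0.02 for Th, -0.08 for Bdnf, -0.21 for Homer1 and 0.03 for Fkbp5. With both covariates it became 0.00 for Pdyn, 0.04 for Kcnn3, -0.12 for Pamr1, -0.05 for Crhbp, -0.19 for Arc, 0.10 for Drd1a, 0.02 for Drd2, -0.15 for Bdnf and 0.02 for Per2. With 1 library left out it ran from -0.32 to 0.38 for Fos, -0.22 to 0.19 for Junb, -0.16 to 0.55 for Arc, -0.26 to 0.14 for Egr1, -0.49 to 0.03 for Npas4, -0.30 to 0.26 for Nr4a1, -0.07 to 0.17 for Homer1 and -0.13 to 0.05 for Per2. Fos, Arc, Egr1, Npas4, Nr4a1 and Junb had their highest values without saline library 3. The cause of these shifts was not tested. Of 940 list medians, 24 moved beyond their spread, 8 with the cortical covariate, 13 with both covariates and 3 with a library left out. Atf3, Lct and Slc6a3 were not tested under the filter of 1 CPM. With a median SE of 0.11, small differences were not detectable at this number of libraries.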
